A study of Mus musculus with 16 samples.

Results

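The nuclear genes for the subunits of the mitochondrial respiratory chain and ATP synthase were followed in progenitors and hair follicle stem cells (HFSCs) sorted from mouse organoids. They were picked by gene symbol (Nduf with a letter a, b, c, s or v and a digit, Sdha to Sdhd, Uqcr, Cox4 to Cox8, and Atp5). The name rule found 83 genes. Of these, 77 averaged at least 10 RNA-seq counts per library and made up the list, among 22579 genes in the count tables and 12242 genes that passed the same minimum. By complex, 37 of the 77 belonged to complex I, 4 to complex II, 8 to complex III, 12 to complex IV and 16 to complex V. The 6 genes under the minimum were Cox4i2, Cox6a2, Cox7a1, Cox7b2, Cox8b and Cox8c.

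The cells came from C57BL/6J mice and grew for 2 weeks in 3D-3C organoids, a Matrigel culture of epidermal cells in which HFSCs and progenitors coexist. The cells were then sorted into alpha6+CD34- progenitors and alpha6+CD34+ HFSCs, which were left untreated or had been given N1-acetylspermidine (N1-AcSpd) over 72 h before the sort. RNA-seq of ribo-depleted total RNA and Ribo-seq, which sequences the RNA fragments covered by ribosomes (footprints), were made from each sort. There were 4 groups per assay (untreated progenitors, treated progenitors, untreated HFSCs and treated HFSCs) with n = 2, and replicates 1 and 2 came from 2 donor mice, so that all 16 libraries rest on these 2 animals. No genotype other than the strain was given, and the ages of the donors were not given in the labels. The paper gives ranges of postnatal days in telogen for mice of both sexes used for isolating epidermal cells. It does not say which range these donors fell in.

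Complexes I and II take electrons from NADH and succinate, complex III passes them to cytochrome c and complex IV to oxygen. Complexes I, III and IV pump protons out of the matrix, and complex V, the ATP synthase, makes ATP from the return of these protons. Complexes I, III, IV and V mix nuclear subunits with a few that the mitochondrial genome encodes, whereas all subunits of complex II are nuclear. Hair follicle stem cells are known for a high rate of glycolysis. N1-AcSpd is the acetylated form of spermidine, the polyamine that serves to make hypusine on the translation factor eIF5A.

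RNA-seq libraries held between 21601141 and 31505435 counts on the single transcript kept for each gene, and Ribo-seq libraries between 34467 (untreated progenitors, replicate 1) and 267921 (untreated progenitors, replicate 2). No molecular identifiers were described, so counts may include PCR copies. Cd34, the surface marker used for the sort, was at 2.35 to 5.36 CPM (counts scaled to the library size) in progenitors and 67.4 to 89.9 CPM in HFSCs. The summed level of the keratinocyte markers Krt5, Krt14 and Itga6 was 3.36e+04 to 4.03e+04 CPM in the 8 RNA-seq libraries. The summed markers of other cell types were low, at 0.0905 to 0.371 CPM for muscle (4 genes), 0.625 to 1.62 for endothelium (3 genes), 0.792 to 2.12 for melanocytes (4 genes), 0.271 to 3.14 for leukocytes (4 genes) and 1.07 to 13.4 for fibroblasts (4 genes). Lyz2, Cd207 and Cdh5 had 0 counts, whereas Cd74 reached 3.14 and Pecam1 1.62 CPM. The fibroblast list was at 1.45 CPM in replicate 1 and 13.4 CPM in replicate 2 of the treated progenitors.

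Of the 77 genes, 4 had no footprint in any of the 8 Ribo-seq libraries although their RNA was abundant. These were Atp5g1 and Atp5g2, which encode the c subunit of the ATP synthase rotor, Atp5l, which encodes its g subunit, and Cox7c, a small subunit of complex IV. Their RNA-seq counts over 8 libraries were 37722, 17797, 21640 and 30716. Among the 2278 coding genes with at least 17797 RNA-seq counts, 53 had no footprint, or 2.33%, against 4 of the 50 respiratory chain genes above that level.

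A stretch of 28 bases lies within the size range of the footprints. The coding sequences of these 4 genes held no such stretch without a match elsewhere in the mouse genome. The same held for Ndufb4, an accessory subunit of complex I, which had 8 footprints and 7590 RNA-seq counts. The third gene for the c subunit, Atp5g3, had 100% unique words of this length, 71225 RNA-seq counts and 740 footprints. The first 28 coding bases of each gene are shown as an example of these stretches, with Atp5g3 for contrast (start codon in capitals, read from the GRCm38 genome with GENCODE vM21 transcripts).
Atp5g1: ATGcagaccaccaaggcactgctcattt
Atp5g2: ATGtacgcctgctccaagttcgtctcta
Atp5l: ATGgccaagttcatccgtaacttcgcgg
Cox7c: ATGttgggccagagtatccggaggttca
Ndufb4: ATGtcgggttccaagtataagcctgcgc
Atp5g3: ATGttcgcctgcgccaagctcgcccgca

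The stretch of Atp5g1 lies in a coding exon at chr11:96074998-96075025 on the minus strand, and 2 further places in the genome hold the same letters. One of them, chr11:100362099-100362126, is in the exon of the processed pseudogene Gm10039. That of Atp5g2 is at chr15:102667722-102667749 (minus strand), with 3 further places, among them the processed pseudogene Gm10231 at chr17:5816613-5816640. That of Atp5l is at chr9:44920634-44920661 (minus strand), with 2 further places, among them the processed pseudogene Atp5l2-ps at chr11:97768060-97768087. That of Cox7c is at chr13:86046648-86046675 (minus strand), with 5 further places, among them the processed pseudogene Gm20091 at chr10:96409011-96409038. For Ndufb4, at chr16:37654332-37654359 (minus strand), 2 further places were found, among them Ndufb4c at chr15:73809869-73809896, a processed pseudogene within Mroh5. The stretch of Atp5g3 at chr2:73910966-73910993 (minus strand) was found nowhere else.

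Over all 77 genes, the median footprint count was lower where under 50% of the words were unique, though the classes overlapped. The 40 genes with at least 90% unique words had between 1 and 2094 footprints (median 212), and the 21 genes with 50 to under 90% had a median of 257. The 11 genes with some but under 50% unique words had between 5 and 170 (median 51). The genes without unique words, 5 in number, had between 0 and 8. Ndufs3, a core subunit of the hydrophilic arm of complex I, had 30.3% unique words and 5 footprints. Cox7a2l, which links complexes III and IV into supercomplexes, had 36.5% unique words and 6 footprints. How reads that match several places were counted is not stated in the sources used here, and its part in these low counts was not tested.

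Per length, the subunits were far above the typical gene in both assays. Their median RNA level was 126 CPM per kb of transcript against 9.07 over 12211 coding genes, and their median footprint level was 395 CPM per kb of coding sequence against 15.9. The ratio of footprint level to RNA level had a median of 2.99 against 1.71. In the 40 genes with at least 90% unique words these medians were 95.2, 391 and 3.45. Across these 40 genes RNA and footprint levels per kb ranked alike (Spearman's rho 0.61, against 0.77 over 10968 genes with a footprint). The ratio was higher in genes with shorter coding sequences (rho with coding length -0.61, against -0.43 over all genes). The values come from the same libraries and coding length is part of the ratio, and genes are not independent replicates, so both are descriptions. Whether reads were counted over coding sequences or whole transcripts is not stated. The ratios and their order could differ if RNA reads were counted over coding sequences alone.

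**Figure D1:**
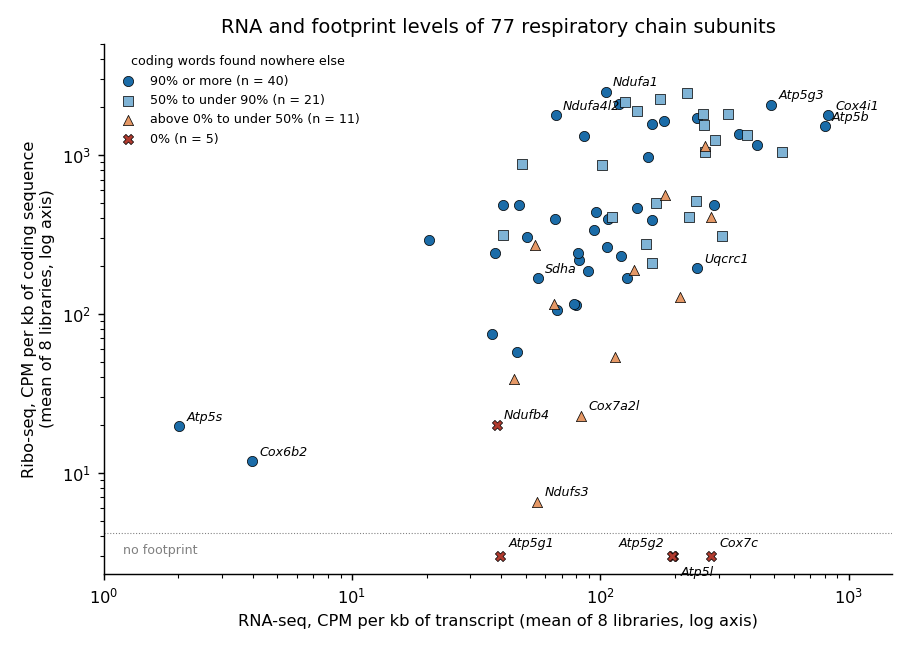
Mean RNA level (x axis, CPM per kb of transcript, log scale) and mean footprint level (y axis, CPM per kb of coding sequence, log scale) of the 77 genes over 8 libraries per assay, 1 point a gene, with colour and shape for the share of its coding words found nowhere else. The 4 genes without a footprint lie on the bottom line between 39.3 and 278 CPM per kb on the RNA axis.

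By complex, the median RNA level was 82.1 CPM per kb of transcript for complex I, 51.7 for complex II, 212 for complex III, 251 for complex IV and 195 for complex V. The footprint medians per kb of coding sequence were 304, 366, 689, 802 and 828 CPM. Among genes with at least 90% unique words alone, the footprint medians were 347 (I), 366 (II), 284 (III) and 1440 (V) CPM, and complex IV kept only Cox6b2 at 11.8 and Cox4i1 at 1780 CPM. Complex II was thus the lowest in RNA over all members, while the lowest median in footprints was that of complex I over all members and that of complex III among the 4 complexes with a median under this restriction. Shares of unique words differed between complexes, with 24 of 37 genes at 90% or more in complex I, 4 of 4 in complex II, 4 of 8 in complex III, 2 of 12 in complex IV and 6 of 16 in complex V.

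Complex I holds core subunits, which carry the flavin and iron-sulfur clusters, and supernumerary subunits around them. In RNA the 7 nuclear core subunits and the 30 supernumerary ones had medians of 81.1 and 83.9 CPM per kb. In footprints, among genes with at least 90% unique words, the 6 core subunits had a median of 214 CPM per coding kb and the 18 supernumerary ones of 429. The longest coding sequence in complex I was that of Ndufs1 (2181 bases), the large subunit of the iron-sulfur chain, with 74.9 CPM per coding kb. Ndufa1, a small membrane subunit with a coding sequence of 210 bases, had the highest footprint level of the list at 2500 CPM per coding kb. The complex I gene with the most footprints was the membrane arm subunit Ndufb6 (684). Ndufa4 was grouped here by its name, although its protein is now assigned to complex IV. Its relative Ndufa4l2, a gene known to be induced by hypoxia, had the highest ratio of footprint level to RNA level on the list (26.8, from 12435 RNA-seq counts and 415 footprints). This ratio uses a transcript length of 934 bases and a coding length of 261 bases.

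In complex II, Sdha carries the flavin, Sdhb the iron-sulfur clusters, and Sdhc and Sdhd anchor the enzyme in the membrane. Their RNA levels were 56.2 (Sdha), 96.5 (Sdhb), 20.4 (Sdhc) and 47.2 (Sdhd) CPM per kb of transcript, and their footprint levels 168, 439, 293 and 484 CPM per kb of coding sequence. Sdha took the most counts in both assays (33249 RNA-seq counts and 311 footprints), but per length it was the lowest of the 4 in footprints.

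In complex III, Uqcrc1, a large core protein of the matrix side, took the most RNA-seq counts (82540) at 244 CPM per kb of transcript, and had 194 CPM of footprints per coding kb, a ratio of 0.793. Uqcrq, a small subunit that binds near cytochrome b, took the most footprints (343) and had 1640 CPM per coding kb. Uqcrfs1, the Rieske iron-sulfur protein, was at 93.9 CPM per kb in RNA and 337 CPM per coding kb in footprints.

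Several subunits of complex IV exist in a ubiquitous and a tissue-restricted form, and in each of these sets 1 form held nearly all RNA. Cox4i1 had 533 to 656 CPM in the 8 libraries, whereas Cox4i2, known from lung, had 34 counts in all. Cox6a1 had 115 to 167 CPM and the heart and muscle form Cox6a2 48 counts in all. Cox6b1 had 252 to 411 CPM and Cox6b2, known from testis, 0.628 to 2.5 CPM. Cox7a2 had 130 to 210 CPM and the muscle form Cox7a1 17 counts in all. Cox8a had 169 to 252 CPM, and Cox7b2, Cox8b and Cox8c had 0 counts. None of the 6 genes under the minimum had a footprint. Cox4i1 took the most counts of complex IV in both assays (125193 RNA-seq counts, 722 footprints) and had the highest RNA level of the list at 824 CPM per kb.

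**Figure D2:**
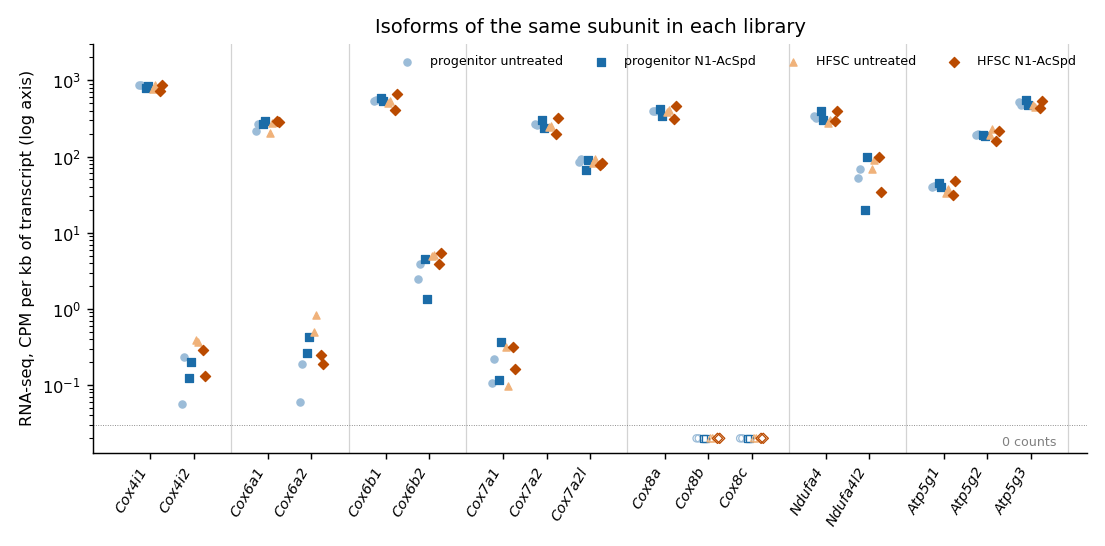
RNA level (CPM per kb of transcript, log axis) of alternative forms of the same subunit in each of the 8 RNA-seq libraries, with shape and colour for the group; open symbols on the bottom line had 0 counts. Cox4i1, Cox6a1, Cox6b1, Cox7a2 and Cox8a lie far above their tissue-restricted forms in every library, and Atp5g1, Atp5g2 and Atp5g3 are all present.

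In complex V, the catalytic beta subunit Atp5b took the most counts in both assays (312661 RNA-seq counts, 2094 footprints), at 800 CPM per kb of transcript and 1520 CPM per coding kb. The alpha subunit Atp5a1, present in the same number as beta in the enzyme, had 362 CPM per kb of transcript and 1360 CPM per coding kb. The central stalk subunits gamma (Atp5c1), delta (Atp5d) and epsilon (Atp5e), of which the enzyme holds a single copy each, had 500, 1700 and 1160 CPM of footprints per coding kb, where Atp5c1 had 72.6% and the other two 100% unique words. Beta and alpha, which the enzyme holds in several copies, were at lower footprint levels than delta and higher ones than epsilon. Of the 3 genes for the c subunit, Atp5g3 had 488 CPM per kb of transcript. Atp5g2 had 196 and Atp5g1 39.3 CPM per kb, from kept transcripts of 441 and 4715 bases that were chosen by RNA-seq counts for want of footprints. Before division by length they were at 86.6 and 185 CPM, so their order rests on these lengths. Atp5s, a factor copurified with the ATP synthase and no stable subunit, was the lowest of the list in RNA at 2.02 CPM per kb.

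Before the groups are compared, the spread between the donor mice needs stating. In RNA-seq, replicate 2 was above replicate 1 for 50 of the 77 genes in untreated progenitors (median log2 difference 0.06), 21 in treated progenitors (-0.09), 65 in untreated HFSCs (0.12) and 71 in treated HFSCs (0.33). Over all genes these medians were between -0.01 and 0.02. The subunits as a set thus stood furthest apart in RNA in the treated HFSC libraries, where Cox6b1 had 252 CPM in replicate 1 and 411 CPM in replicate 2. In Ribo-seq, over the 60 subunits averaging at least 10 footprints, the medians on the log2(CPM + 1) scale were 0.81 in untreated progenitors, -0.05 in treated progenitors, 0.48 in untreated HFSCs and -0.22 in treated HFSCs. Over all 2259 genes of that depth they were 0.50, 0.01, 0.23 and -0.10.

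Over 12242 genes, deviations of replicate 2 from its group mean correlated between untreated progenitors, untreated HFSCs and treated progenitors (r between 0.355 and 0.674). Against the treated HFSCs they correlated negatively (r between -0.631 and -0.377), so that the treated HFSC RNA-seq libraries went against their replicate numbers. In Ribo-seq the correlations over 2259 genes were between 0.015 and 0.101. The group labels are not touched by this, and the comparisons below were fitted without the donor. Without the treated HFSC library of replicate 1, the median change of the subunits in HFSCs was 0.15 and without that of replicate 2 it was -0.16 (log2).

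As a set the subunits did not follow this reversal, since replicate 2 was the higher one for 71 of 77 in treated HFSCs. It was so for 50 in untreated progenitors, 65 in untreated HFSCs and 21 in treated progenitors. Cox6a1, Cox6c, Ndufa6 and Ndufb10 were among the subunits that did follow it. Ndufa4l2 did so too. Its RNA was at 49.3 and 64.5 CPM in untreated progenitors (replicates 1 and 2), 18.7 and 91.7 in treated progenitors, 63.5 and 83.1 in untreated HFSCs, and 91.4 and 31.9 in treated HFSCs. Its footprints were at 299 and 674, 173 and 605, 352 and 699, and 257 and 649 CPM in the same order. Replicate 2 was thus the higher one in all 4 groups of Ribo-seq and in 3 of 4 groups of RNA-seq, the exception being the treated HFSCs, and within each assay the groups overlapped. The highest RNA-seq library was 4.91 times the lowest, against 3.98 for Cox6b2 and at most 1.67 for the other 75 genes.

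**Figure D3:**
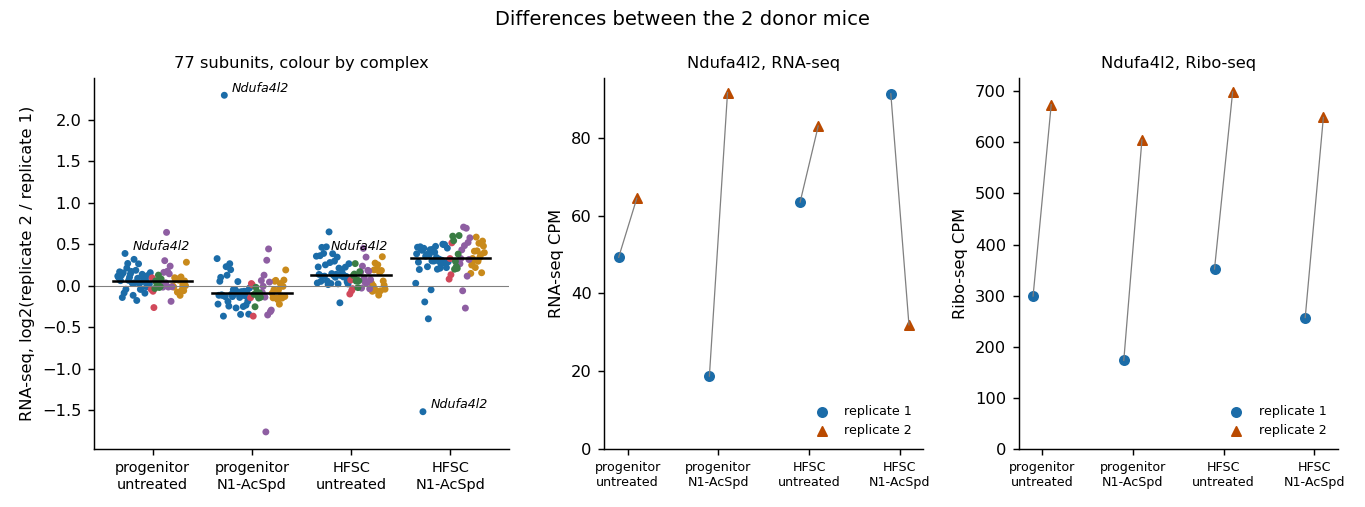
Left, log2 ratio of replicate 2 to replicate 1 in RNA-seq CPM for each of the 77 genes in the 4 groups, coloured by complex, with black bars for the medians; middle and right, Ndufa4l2 in RNA-seq and Ribo-seq (CPM) in each library. The medians lie at 0.06, -0.09, 0.12 and 0.33, and Ndufa4l2 in the treated HFSCs lies on the other side of 0 in RNA-seq than in the other groups.

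The question of the first comparison was whether the sorted populations differ in the output of these genes as a whole. The 77 genes took 1.22% ± 0.0158 (SD, n = 2) of RNA-seq counts in untreated progenitors, 1.22% ± 0.0349 in untreated HFSCs, 1.21% ± 0.0973 in treated progenitors and 1.2% ± 0.171 in treated HFSCs. The groups overlapped, and the lowest and highest libraries, at 1.08% and 1.32%, were both treated HFSCs. Of footprints the genes took 2.22% ± 0.311, 2.35% ± 0.0448, 2.43% ± 0.0664 and 2.42% ± 0.25 in the same order. Here, too, the groups overlapped, and the lowest library, at 2%, was the shallowest one. With 2 libraries against 2, a two-sided exact permutation test of a single value cannot go below p = 0.333, so no test of the shares is given. In bulk samples, fewer cells of a type and less RNA per cell cannot be told apart.

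The complexes ranked alike in all 8 RNA-seq libraries. Complex V took 0.42 to 0.506% of RNA-seq counts, complex I 0.288 to 0.346%, complex IV 0.208 to 0.265%, complex III 0.127 to 0.163% and complex II 0.0371 to 0.0425%. In footprints the ranges were 0.817 to 1.05%, 0.586 to 0.881%, 0.27 to 0.398%, 0.17 to 0.23% and 0.0667 to 0.13%. The order was the same except in replicate 2 of the treated progenitors, where complex I took 0.847% and complex V 0.817% of footprints. The lowest footprint shares of complexes I, II and IV were all from the shallowest library, replicate 1 of the untreated progenitors.

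**Figure D4:**
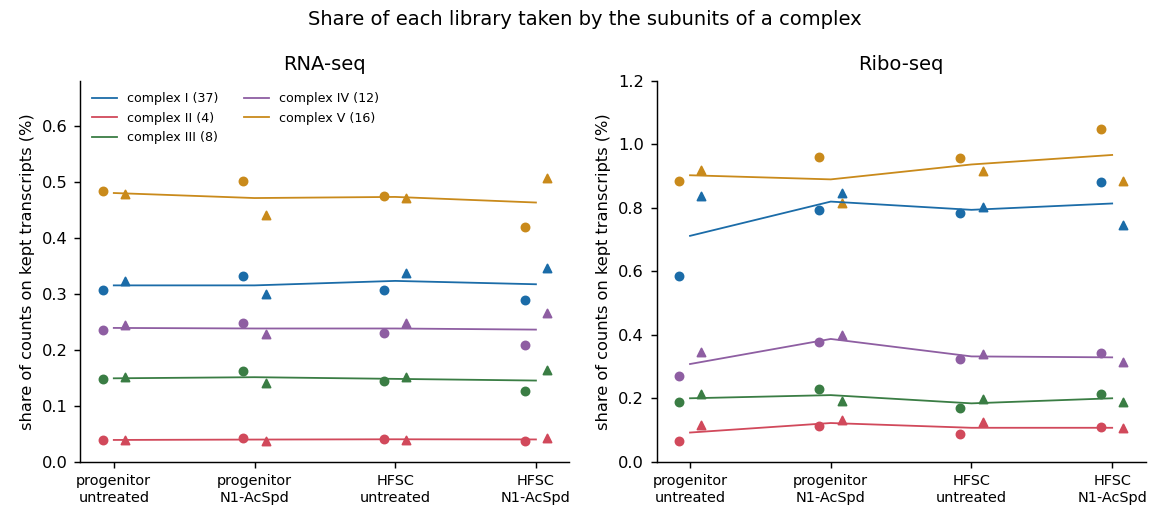
Share of the counts of each library (%, y axis) that fell on the subunits of each complex in RNA-seq (left) and Ribo-seq (right), by group; circles are replicate 1, triangles replicate 2, and lines join the means. Complex II is the lowest in each library of both assays, and complex V the highest except in the Ribo-seq library of treated progenitors, replicate 2.

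HFSCs and progenitors did not differ detectably in the RNA of any subunit. In untreated cells 0 of 77 genes passed an adjusted p of 0.05 in edgeR's quasi-likelihood test, as against 0.148% of the 14205 genes tested. At an unadjusted p of 0.05 the count was 0 of 77 as well, against 9.58% of all genes, and DESeq2 also gave 0 in both counts. The estimates leaned to the progenitor side, with 57 of 77 genes lower in HFSCs and 20 higher. The median log2 fold change was -0.05, where all genes had -0.01 and 47.7% of them were higher. Single libraries decided this lean, since the median was 0.00 without replicate 2 of the untreated progenitors, 0.02 without replicate 1 of the untreated HFSCs and -0.10 without their replicate 2. By complex the medians were -0.03 (I), -0.02 (II), -0.08 (III), -0.07 (IV) and -0.06 (V), and 7 of 8 complex III genes, 10 of 12 complex IV genes and 13 of 16 complex V genes were on the lower side.

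Atp5k, the e subunit of ATP synthase, had the smallest p among the lower genes. It was at 51.3 and 49.2 CPM in untreated progenitors and 36.6 and 46.6 CPM in untreated HFSCs, so the groups did not overlap, with a log2 fold change of -0.27 (SE 0.13, edgeR adjusted p = 0.568). Ndufc1, a membrane subunit of complex I, followed with -0.19 (SE 0.11, edgeR adjusted p = 0.639). On the higher side Cox6b2 was at 1.16 and 1.81 CPM in progenitors and 2.33 and 2.39 CPM in HFSCs, with a log2 fold change of 0.67 (SE 0.50, edgeR adjusted p = 0.755). The intervals were narrow for most genes. For 75 of the 77 the 95% interval of the fold change lay within 2-fold in either direction, as for 68.3% of all genes, and for 73 within 1.5-fold. The exceptions to the first were Cox6b2 and Ndufa4l2.

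With N1-AcSpd the result was alike. In edgeR 0 of 77 genes passed the adjusted threshold (0.746% of all genes did) and 0 passed the unadjusted one (11.2% of all genes), and DESeq2 gave 0 in both counts. The unadjusted count was 11 of 77 without replicate 2 of the treated HFSCs and at most 1 without any other library. Here and below, the shares over all genes in the fits with 1 library left out are not given, so these counts are no result about the subunits. Of the 77, 48 were lower and 29 higher in HFSCs. Their log2 fold changes had a median of -0.02 against 0.00 for all genes, which was 0.11 without replicate 1 of the treated HFSCs and -0.20 without their replicate 2. Uqcrq was at 312 and 283 CPM in treated progenitors and at 202 and 307 CPM in treated HFSCs. The groups overlapped, and its log2 fold change of -0.22 (SE 0.18, edgeR adjusted p = 0.746) was 0.03 without replicate 1 of the treated HFSCs. Sdhc, at 59.5 and 59.9 CPM in treated progenitors and 61.7 and 67.6 CPM in treated HFSCs, had a log2 fold change of 0.12 (SE 0.10, edgeR adjusted p = 0.763).

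The next comparison asked whether N1-AcSpd altered these genes within each population. In progenitors 0 of 77 passed the adjusted threshold in edgeR (0.239% of all genes did) and 0 the unadjusted one (8.88% of all genes), with 0 in both counts in DESeq2. The unadjusted count was at most 2 with 1 library left out. The genes split into 42 higher and 35 lower. Their median was 0.01 on the log2 scale against -0.01 for all genes, and all estimates lay between -0.20 and 0.20. The summed level of 5 late differentiation markers moved with this comparison, at 214 and 137 CPM in treated progenitors against 62.9 and 50.1 CPM in untreated ones. So did the sum of 6 HFSC markers, at 270 and 310 CPM in treated against 394 and 450 CPM in untreated progenitors. Of these, Krt15 was at 104 and 96.8 against 169 and 190 CPM. Sox9 was also lower in both treated libraries than in both untreated ones. The untreated and treated values overlapped for Cd34, Lhx2, Nfatc1 and Dkk3. The part of these marker sums in the values of the subunits was not tested. Ndufa12, an accessory subunit of complex I, was at 65.7 and 68.5 CPM without and 75.2 and 78.0 CPM with N1-AcSpd, a log2 fold change of 0.19 (SE 0.12, edgeR adjusted p = 0.728). Ndufv3, an accessory subunit of the NADH-binding module, was at 74.1 and 82.6 CPM without and 69.4 and 68.1 CPM with it, a log2 fold change of -0.19 (SE 0.14, edgeR adjusted p = 0.775).

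In HFSCs 0 of 77 passed the adjusted threshold in edgeR, as was the case for 0% of all genes. At the unadjusted threshold there was 1 of 77, against 7.74% of all genes, and DESeq2 gave 0 in both counts. The unadjusted count was 8 without replicate 1 of the treated HFSCs, 7 without their replicate 2 and 5 without replicate 2 of the untreated HFSCs. This gene was Ndufa12 again, whose coding sequence had 20.6% unique words. It was at 62.1 and 68.2 CPM without and 71.1 and 86.5 CPM with N1-AcSpd. Its groups did not overlap, and its log2 fold change was 0.28 (SE 0.12, 95% interval 0.01 to 0.55, edgeR adjusted p = 0.632). Ndufa12 was thus the higher-side gene with the smallest p in both populations. On the lower side Ndufv3 had the smallest p in HFSCs, with -0.19 (SE 0.13, edgeR adjusted p = 0.808), and Sdhc in progenitors, with -0.15 (SE 0.10, edgeR adjusted p = 0.749). The libraries of progenitors and HFSCs differ, but each pair comes from the same 2 mice. The split over all 77 was 42 higher and 35 lower (median 0.02, all genes -0.01). Marker sums moved with this comparison too. The late differentiation markers summed to 27.7 and 27.6 CPM without and 49.2 and 69.8 CPM with N1-AcSpd. The 6 HFSC markers summed to 1110 and 1330 CPM without and 840 and 657 CPM with it. Of these, Krt15 was at 683 and 764 against 346 and 309 CPM, and Nfatc1 at 88.5 and 91.3 against 79.6 and 83.4 CPM. The untreated and treated values overlapped for Cd34, Sox9, Lhx2 and Dkk3. The part of these marker lists in the values of the subunits was not tested.

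The interaction, which tests whether the effect of N1-AcSpd differs between HFSCs and progenitors, gave 0 of 77 at the adjusted threshold in edgeR (0% of all genes), 0 at the unadjusted one (0.831% of all genes) and 0 in both counts in DESeq2. The unadjusted count was 4 without replicate 2 of the treated HFSCs and at most 1 without any other library. Its largest estimate was that of Atp5k, 0.25 (SE 0.19, edgeR adjusted p = 1). Atp5k was at 48.1 and 47.8 CPM in treated progenitors and 44.8 and 49.9 CPM in treated HFSCs. In each of the 5 RNA-seq comparisons the 95% interval lay within 2-fold for the same 75 genes, against 64.7 to 70.4% of all genes.

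**Figure D5:**
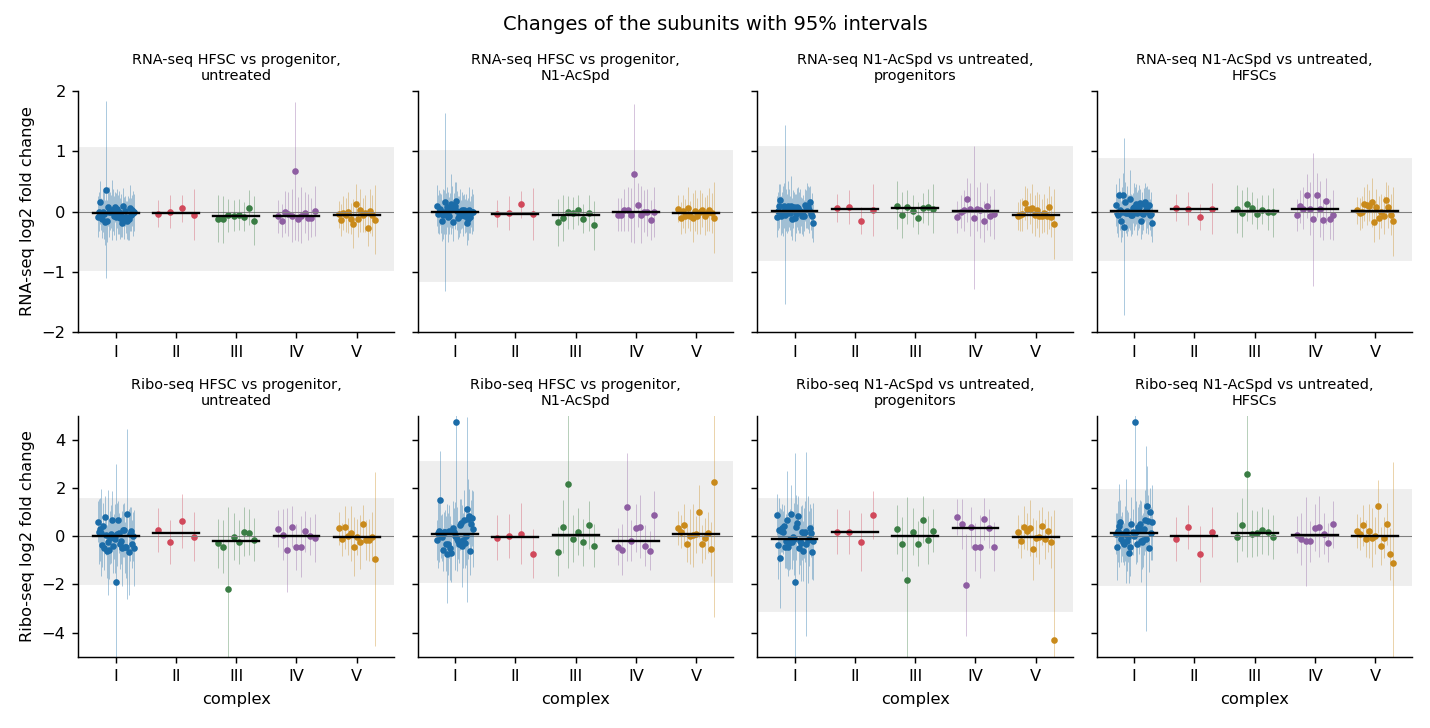
Log2 fold change (y axis) of each subunit with its 95% interval, grouped by complex, in RNA-seq (top) and Ribo-seq (bottom) for the 4 comparisons between groups; black bars are medians and the grey band spans the central 90% of all genes tested. RNA-seq estimates lie close to 0, with intervals that reach 0.34 log2 units to either side in the median gene, and the Ribo-seq intervals reach about 1.03 and can run past the axis.

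Footprints were tested for 70 of the 77 genes, with a mean of at least 1 footprint per library. The 7 others were the 4 genes without a footprint, Cox6b2 (1 footprint), Ndufs3 and Cox7a2l. The depth of the footprints limits what can be seen. The median 95% interval reached about 1.03 log2 units to either side in the 4 comparisons between groups and 1.47 in the interaction. In untreated cells 0 of 70 passed the adjusted threshold between HFSCs and progenitors in edgeR (0.0237% of 8431 genes did) and 0 the unadjusted one (2.66% of genes), with 0 in both counts in DESeq2. With N1-AcSpd the counts were 0 and 0 in edgeR (0.0237% and 3.44% of genes) and 0 in DESeq2. With 1 library left out the unadjusted counts were at most 8 in untreated cells (without replicate 2 of the progenitors, against 4 without replicate 2 of the HFSCs) and at most 4 with N1-AcSpd (without replicate 1 of the progenitors). The median log2 fold changes were -0.03 and 0.03. Leaving out 1 library moved the first to between -0.31 (without replicate 2 of the untreated HFSCs) and 0.51 (without replicate 2 of the untreated progenitors). It moved the second to between -0.29 and 0.24 (without replicate 1 of the treated HFSCs and of the treated progenitors). For only 8 and 9 of the 70 genes did the interval lie within 2-fold, against 2.32% and 2.79% of all genes.

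Ndufa4, with 83.1% unique words, had the smallest p in untreated cells. Its footprints were at 149 and 437 CPM in progenitors and 581 and 580 CPM in HFSCs, which did not overlap, with a log2 fold change of 0.81 (SE 0.44, edgeR adjusted p = 1). The lowest of its values rests on 6 footprints in the shallowest library. Ndufb6 was at 174 and 915 CPM in progenitors and 1440 and 580 CPM in HFSCs, with a log2 fold change of 0.69 (SE 0.39, edgeR adjusted p = 1). Here the lowest value rests on 7 footprints in the same library. Without replicate 2 of the untreated progenitors Ndufb6 had a log2 fold change of 2.51, and without replicate 1 of the untreated HFSCs of -0.09. On the lower side, Ndufa5 had a log2 fold change of -0.63 (SE 0.57) and Ndufa3 of -0.49 (SE 0.47). With N1-AcSpd, Atp5h was at 1.02 (SE 0.56) and Cox8a at 0.86 (SE 0.52) on the higher side. Cox7b was at -0.60 (SE 0.42) and Sdhd at -0.73 (SE 0.52) on the lower side.

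With N1-AcSpd, 0 of 70 genes passed the adjusted threshold for footprints in progenitors in edgeR (0.0237% of genes did), and 2 passed the unadjusted one (2.82% of genes), while DESeq2 gave 0 and 1. The unadjusted count of 2 was 10 without replicate 2 of the untreated progenitors and 4 with the donor as a block, and it was 0 in other settings, among them the fit on only the libraries compared. Cox4i1, the subunit that regulates complex IV by ATP, was at 498 and 823 CPM without and 1080 and 1310 CPM with N1-AcSpd. Its groups did not overlap, and its log2 fold change was 0.80 (SE 0.39, edgeR adjusted p = 0.999). Ndufa1 was at 174 and 461 CPM without and 542 and 768 CPM with it, again without overlap, at 0.88 (SE 0.43, edgeR adjusted p = 0.999). Their RNA was at 640 and 656 against 595 and 621 CPM for Cox4i1 and at 43.5 and 47.1 against 37.9 and 47.5 CPM for Ndufa1. Among the genes lower in footprints, Ndufv2 had a log2 fold change of -0.65 (SE 0.58) and Ndufa4l2 of -0.46 (SE 0.45).

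In HFSCs 0 of 70 passed the adjusted threshold in edgeR (0% of genes) and 1 the unadjusted one (3.53% of genes), with 0 in both counts in DESeq2. The unadjusted count ranged from 0 to 5 with 1 library left out, with 5 without replicate 2 of the untreated HFSCs. Atp5h, the d subunit of the stator of ATP synthase, was at 106 and 167 CPM without and 257 and 433 CPM with N1-AcSpd. The groups did not overlap, and the log2 fold change was 1.23 (SE 0.55, edgeR adjusted p = 1). Atp5h had only 13.8% unique words, and its values rest on 6, 21, 37 and 26 footprints. Its RNA was at 171 and 191 against 139 and 198 CPM. Ndufv1, with 100% unique words, followed in footprints at 176 and 199 CPM without and 347 and 416 CPM with N1-AcSpd (log2 fold change 0.99, SE 0.51). Among the lower genes, Atp5o had a log2 fold change of -0.74 (SE 0.55) and Sdhc of -0.74 (SE 0.59). The interaction gave 0 of 70 at the adjusted (0% of genes) and 0 at the unadjusted threshold in edgeR (2.69% of genes), and 0 in both counts in DESeq2. The unadjusted count was 10 without replicate 2 of the untreated progenitors, 4 without replicate 2 of the untreated HFSCs and 3 without replicate 1 of the treated progenitors. No interval of the 70 lay within 2-fold (0.344% of all genes).

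Among complex II genes, footprints of Sdha were at 99.5 and 441 CPM in untreated progenitors, 345 and 376 in treated progenitors, 264 and 469 in untreated HFSCs and 367 and 316 in treated HFSCs. Those of Sdhb were at 373 and 357, 259 and 572, 247 and 357, and 423 and 383 CPM. Sdhc had 24.9 and 205, 148 and 98, 159 and 278, and 125 and 150 CPM, and Sdhd 74.7 and 257, 407 and 310, 141 and 230, and 229 and 200 CPM. For Sdha, Sdhc and Sdhd the lowest library was replicate 1 of the untreated progenitors, with 4, 1 and 3 footprints, and their untreated groups overlapped. With N1-AcSpd the progenitors and HFSCs did not overlap for Sdhd, at a log2 fold change of -0.73 (SE 0.52), and did for Sdha, Sdhb and Sdhc. In RNA the same 4 genes kept within narrow bounds, with 152 to 177 CPM for Sdha, 98.9 to 124 for Sdhb, 59.5 to 70.2 for Sdhc and 47.7 to 68.2 for Sdhd.

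Translational efficiency (TE), the change in footprints relative to the change in RNA, was tested as an interaction of assay and group over all 16 libraries. Between HFSCs and progenitors 0 of 70 passed the adjusted threshold in edgeR (0% of 8430 genes) and 0 the unadjusted one (6.12% of genes), while DESeq2 gave 0 and 2. For N1-AcSpd the counts were 0 and 0 in edgeR (0% and 7.39% of genes) and 0 and 2 in DESeq2. Without the Ribo-seq library of untreated progenitors, replicate 2, the unadjusted counts were 7 and 8, and without that of treated HFSCs, replicate 1, they were 1 and 6. Medians were 0.01 in both, and in both 36 genes were higher and 34 lower. With 1 library left out the medians ranged from -0.14 to 0.38 for cell type and from -0.19 to 0.29 for N1-AcSpd. The interval lay within 2-fold for 47 and 43 of the 70 genes, against 17.5% and 16.7% of all genes. Atp5c1 had the smallest p for cell type, with a log2 TE difference of 0.43 (SE 0.24, edgeR adjusted p = 0.854). For N1-AcSpd, Cox4i1 had 0.48 (SE 0.23, edgeR adjusted p = 0.677) and Sdhc -0.53 (SE 0.35, edgeR adjusted p = 0.769), which was 0.85 without the Ribo-seq library of untreated progenitors, replicate 2. These TE comparisons share their footprint libraries with the comparisons above and are not independent of them.

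Outside the list, 49 assembly factors of the complexes were looked up, of which 48 were tested in RNA. In edgeR 0 of 48 passed the adjusted threshold in any of the 5 comparisons, with 1, 0, 1, 4 and 0 at the unadjusted one in the order above, and in DESeq2 0 passed the adjusted and 0, 0, 1, 3 and 0 the unadjusted threshold. Over all genes 9.58%, 11.2%, 8.88%, 7.74% and 0.831% passed the unadjusted threshold in edgeR in these comparisons. The 4 were Ndufaf4, Nubpl, Sco1 and Coa7 in HFSCs with N1-AcSpd. Ndufaf4, an assembly factor of complex I, had the smallest p, with a log2 fold change of 0.66 (edgeR adjusted p = 0.271). Its values in the other comparisons at that threshold were 0.42 for N1-AcSpd in progenitors and -0.37 for HFSCs against progenitors in untreated cells. Of 11 regulators of these genes, 0 passed the adjusted threshold in each RNA-seq comparison in edgeR and in DESeq2, with 1, 1, 1, 1 and 0 at the unadjusted one in edgeR and 1, 0, 1, 1 and 0 in DESeq2. Pprc1, a coactivator related to Ppargc1a, accounted for the 2 counts with N1-AcSpd. It had 31771 counts and 125 to 195 CPM, with a log2 fold change of 0.32 in progenitors (SE 0.10, edgeR adjusted p = 0.37) and 0.43 in HFSCs (SE 0.10, edgeR adjusted p = 0.299). The other counts were of Ppargc1a, the coactivator of mitochondrial biogenesis, which was scarce, with 90 counts over 8 libraries and 0.0431 to 1.04 CPM. It had a log2 fold change of 2.93 in untreated HFSCs against progenitors (SE 0.82, edgeR adjusted p = 0.251). The gene for cytochrome c, Cycs, had 18754 RNA-seq counts and, like the 4 subunit genes above, 0 footprints.

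Nuclear subunit genes are known targets of NRF1, of ETS-family factors such as GABPA, and of YY1. Promoters from RefSeq (GRCm38.p6), from 250 bases before to 50 after the start, matched 65 of the 77 genes and 9675 of the genes that passed the minimum. The letters GCATGCGC (NRF1) on either strand were in 10 of 65 promoters (15.4%) and in 5.6% of all. CCGGAAG (ETS) was in 15 (23.1%) and in 19.1% of all, and AAGATGGCG (YY1) in 6 (9.23%), 5 of them among the 32 matched promoters of complex I, and in 3.4% of all. At least 1 of them was in 26 of the 65 (40%) and in 25.9% of all. Only exact letters were searched, matches on both strands that overlap counted once per promoter, none of these 3 words contains another, and a match is a description and not a bound site.

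The sites of 5 genes from 4 complexes are shown as examples of the NRF1 letters, which stand in capitals, on the strand of the gene.
Atp5k: actgcggcGCATGCGCctttctgg
Cox6a1: aacggggcGCATGCGCgctctcgc
Sdhb: cccagtggGCATGCGCcctacggg
Ndufa11: cactgcgcGCATGCGCgcacgcct
Ndufa6: gcggtagaGCATGCGCattgcaga

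With bases counted to the RefSeq start, they lie at chr5:108434432-108434455 (Atp5k, minus strand, 48 bases before the start), chr5:115349103-115349126 (Cox6a1, minus strand, 160 bases), chr4:140961209-140961232 (Sdhb, plus strand, 54 bases), chr17:56717696-56717719 (Ndufa11, plus strand, 58 bases) and chr15:82354359-82354382 (Ndufa6, minus strand, 83 bases). The GENCODE transcripts kept for Sdhb and Atp5k start further upstream, so that the stretch of Sdhb lies within its transcript and that of Atp5k overlaps it. Nrf1 itself was at 43.5 to 58.1 CPM in the 8 RNA-seq libraries. Its log2 fold change was -0.07 between untreated HFSCs and progenitors (SE 0.17, edgeR adjusted p = 0.94) and between -0.05 and -0.01 with N1-AcSpd.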

How the data were processed

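Gene counts came from 8 RNA-seq and 8 Ribo-seq libraries. The deposited tables hold counts per transcript that the authors made from reads freed of adapters (flexbar) and of rRNA and tRNA (Bowtie 1.2.3), aligned with STAR 2.7.3a to GRCm38.p5. featureCounts is named in the submitters' processing notes. Whether reads were counted over coding sequences or whole transcripts, on which strand, and how a read matching several places was treated is not given in the sources used here. The kit was not stated to mark strand, so antisense reads may be included. The deposited normalised columns and the authors' comparisons of translation (fold changes and p-values) were not used.

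Members and all lists were chosen with earlier results of these data known. For each gene the transcript with the most Ribo-seq counts was kept. Genes averaging at least 1 count entered edgeR 4.0.16 (R 4.3.3; TMM factors, quasi-likelihood test, Benjamini-Hochberg adjustment over all genes tested), fitted once per assay over 4 groups of 2 libraries without a donor term. CPM are counts per 1000000 counts of a library, scaled by TMM factors. TE was the assay by group interaction over 16 libraries. SE was taken from the fold change and the F statistic. DESeq2 1.42.0 was an alternative, with 12 comparisons in all. Replicate numbers pair the samples, since the labels give the same mouse to each number. A block on the number was run as an alternative, and the check of the pairing (correlation of deviations from the group means) gave r between -0.631 and 0.674 in RNA-seq and between 0.015 and 0.101 in Ribo-seq. No label says that the 4 cultures of a mouse were independent beyond their treatment and sort, so p-values measure the spread between these libraries.

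Unique words were coding stretches of 28 bases of the kept transcript without a match in the GRCm38 genome outside the gene and its surroundings. Both strands were searched. Transcripts of other genes were not searched, and a word across an exon junction counted as unique if the genome held no match. Levels per length divided CPM by the length of the transcript or coding sequence. Genes were named by a rule: per comparison the 2 subunits with the smallest p in each direction averaging at least 10 counts in the assays used, of which the text gives those with most bearing, per complex the genes with most counts, the isoform sets, the 4 Sdh genes and the genes without footprints. The values of 1 gene that this rule names are not reported here. Alternatives were DESeq2, other scaling factors, other count minimums, other transcripts, only the libraries compared, the replicate block, and leaving out each library. Footprint depth per library set the precision, since 3 counts, the limit that a count of 0 allows, were 0.00112 to 0.0087% of a Ribo-seq library, a floor that covers counting error only.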

Additional observations from a re-analysis of the deposited data

Results flagged for a closer look

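Complex II was the single one of 28 checks in which the difference between HFSCs and progenitors had opposite directions in untreated and treated cells in both donor mice. Its share of footprints was higher in HFSCs than in progenitors by 0.021 percentage points (replicate 1) and 0.0089 (replicate 2) in untreated cells, and lower with N1-AcSpd, where the same differences were -0.0057 and -0.025 percentage points. The difference was not tested. The shares rest on 23 to 314 footprints per library, and the RNA share of the same 4 genes was between 0.0371 and 0.0425% in the 8 libraries.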

How the results depend on the processing

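The count of subunits past the adjusted threshold was 0 in each of the 12 comparisons and stayed 0 in 209 of 211 alternative fits. The other 2 left out replicate 2 of the untreated progenitors in Ribo-seq, where 1 gene, Ndufb6, passed for HFSCs against progenitors in untreated cells and for N1-AcSpd in progenitors. Over the libraries left out in turn, these counts ranged from 0 to 1. That fit leaves the shallowest library alone in its group, which is then assumed to vary like the others. Counts at the unadjusted threshold moved more, up to 11 of 77 in RNA-seq and 10 of 70 in Ribo-seq with 1 library left out. The shares over all genes in those fits are not given, so these counts are not read as a result about the subunits. With the donor as a replicate block the count past the adjusted threshold was 0 in all 12 comparisons. Over all genes the block moved the RNA-seq calls from 21 to 3 (untreated cells), from 106 to 44 (N1-AcSpd) and from 34 to 7 (progenitors). With replicates 1 and 2 of RNA-seq from treated HFSCs swapped, an alternative added after the data were seen, the blocked fits called 751, 903, 446 and 269 genes in the 4 group comparisons and 0 subunits.

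For single genes, 832 of 844 alternative fits kept direction and side of the threshold. Those that turned direction all left out 1 library, and the ranges over the libraries left out were as follows. In RNA-seq with N1-AcSpd, HFSCs against progenitors, Uqcrq ranged from -0.54 to 0.03 and Ndufb2 from -0.38 to 0.02. In the RNA-seq interaction, Ndufa2 ranged from -0.40 to 0.04 and Ndufa11 from -0.40 to 0.03. These 4 turned without replicate 1 of the treated HFSCs. In Ribo-seq of untreated cells, Ndufb6 ranged from -0.09 (without replicate 1 of the untreated HFSCs) to 2.51, and Ndufa3 from -1.0 to 0.01 (without replicate 1 of the untreated progenitors). In Ribo-seq with N1-AcSpd in progenitors, Ndufv2 ranged from -1.68 to 1.34 and Ndufa4l2 from -1.63 to 0.30. In TE, Sdhd ranged from -0.60 to 0.38 for cell type and Sdhc from -0.74 to 0.85 for N1-AcSpd. The highest values of Ndufv2, Ndufa4l2, Sdhd and Sdhc came without replicate 2 of the untreated progenitors in Ribo-seq, and Ndufa4l2 was also at 0.16 without replicate 1 of the treated progenitors. The cause was not tested. The other 594 fits, counts and medians included, which used all libraries compared, changed no count of calls and no direction of a named gene. The median change of the subunits ranged over all alternatives from -0.2 to 0.15 (log2) in RNA-seq, where 4 of 84 values moved by more than the spread between mice, from -0.41 to 0.52 in Ribo-seq, where 14 of 79 did, and from -0.19 to 0.38 in TE, where 0 of 48 did. At the depth of the footprints the median 95% interval, before any adjustment, reached about 1.03 log2 units to either side in the 4 comparisons between groups. In the interaction it reached 1.47.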
